A study of Mus musculus with 12 samples.

Results

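The LPS receptor complex and its adaptors were followed as 10 genes, chosen by symbol. They were the LPS carriers Lbp and Cd14, the receptor pair Tlr4 and Ly96, the related pair Cd180 and Ly86, and the adaptors Tirap, Myd88, Ticam2 and Ticam1. All 10 were among the 23329 genes listed in the count tables and among the 13038 genes tested. The RNA came from primary stromal cells of the small intestine of C57BL6/J mice, which the labels call intestinal myofibroblasts, cultured to passage 2-3 after the epithelium had been shaken off. Cells of E14.5 embryos or of adult mice were treated for 6 h with LPS from Escherichia coli O111:B4, labelled at 10 µg/µl, or with the vehicle PBS, and polyA mRNA was sequenced in a strand-specific way. Each of the 4 groups (embryonic PBS, embryonic LPS, adult PBS and adult LPS) held 3 libraries from independent cultures. Each embryonic culture pooled several embryos, the 3 adult cultures came from 3 adult mice, and the labels name no mutation or transgene. All cells grew with serum, β-mercaptoethanol and the ROCK inhibitor Y27632, so these were passaged cells and not fresh tissue.

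LPS, from the outer membrane of Gram-negative bacteria, is picked up by LPS-binding protein (LBP), handed to CD14 and passed on to MD-2 (encoded by Ly96), which sits on the ectodomain of TLR4. At the cell surface TIRAP bridges the TIR domain of TLR4 to MyD88, which starts the IRAK, TRAF6 and NF-kB arm. After CD14-assisted endocytosis TRAM (Ticam2) bridges TLR4 to TRIF (Ticam1), which starts the TBK1, IRF3 and type I interferon arm. RP105 (Cd180) resembles TLR4 outside the cell but lacks a TIR domain, pairs with MD-1 (Ly86) as TLR4 pairs with MD-2, and is best known in B cells, macrophages and dendritic cells.

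Between 18850224 and 32672370 counts per library fell on genes, so that 3 counts, taken as the smallest detectable level, were worth 0.0897 to 0.145 CPM, the count scaled to the library's normalized total. This floor covers counting error only. Stromal markers (10 genes, among them Col1a1 and Acta2) summed to between 23200 and 44600 CPM in every library. The sum hides stage differences of single genes in both directions. Pdgfra averaged 3.49 CPM in embryonic PBS and 45.9 in adult PBS libraries, and Des 2110 and 668 CPM. A list of 12 macrophage markers was present too, summing to 244, 452 and 2800 CPM in embryonic PBS, 211, 1090 and 2340 in embryonic LPS, 195, 19.3 and 47.9 in adult PBS and 214, 16.6 and 50.2 in adult LPS libraries (replicates 1, 2 and 3). The third embryonic culture therefore stood apart, and the first adult culture lay near the first embryonic culture. Of the other lists, markers of epithelium summed to 7.47 to 59.5 CPM, of neurons and glia to 0.335 to 9.25, of mesothelium to 107 to 966, and of endothelium to 8.1 to 710, with the highest sums in adult libraries. The epithelial sum was mostly Krt20, with group means of 9.77 to 43 CPM. Epcam, Cdh1, Vil1 and Cdx1 had group means of at most 0.604 CPM and were too low to be tested. Within a stage, an LPS library and the PBS library with its number departed in the same way from their group means. The r across genes was 0.71 to 0.784 in embryonic and 0.61 to 0.85 in adult cultures. The labels do not say that such pairs share a culture. The LPS comparisons were therefore also run with the culture as a block. In bulk RNA, fewer cells of a type and less RNA per cell cannot be told apart.

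Per kilobase of exon, Myd88 was the most abundant of the 10 transcripts in adult cells, with 13.1 ± 2.83 CPM per kb with PBS and 19.4 ± 4.75 with LPS (mean ± SD, n = 3 here and throughout). Ly96 came next in adult cells, with 10.1 ± 1.01 CPM per kb with PBS, followed by Tlr4 with 6.84 ± 0.697 and Ticam1 with 6.16 ± 1.36. The libraries of Myd88 and Ly96 overlapped there, as did those of Tlr4 and Ticam1. In embryonic PBS cells the per-kilobase order was Ly86 (16.9 ± 22.7), Myd88 (10.1 ± 1.75), Ly96 (9.16 ± 1.44), Cd14 (7.58 ± 6.16) and Ticam1 (5.88 ± 1.4), with SDs of Ly86 and Cd14 too wide to order them against their neighbours. Tlr4 ranked 8 of 10 there, at 3.13 ± 1.28 CPM per kb. With LPS, Cd14 moved to the top of the embryonic order at 166 ± 174 CPM per kb, ahead of Myd88 at 40.7 ± 28.1. Ticam2 was last in 3 of the 4 groups, at 0.0386 to 0.493 CPM per kb, and next to last in embryonic PBS cells at 0.549. Against all tested genes, by CPM without regard to length, Cd14 lay above 37% of them in embryonic PBS cells and above 95% in embryonic LPS cells, and above 18.3% and 40.6% in adult cells.

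**Figure D1:**
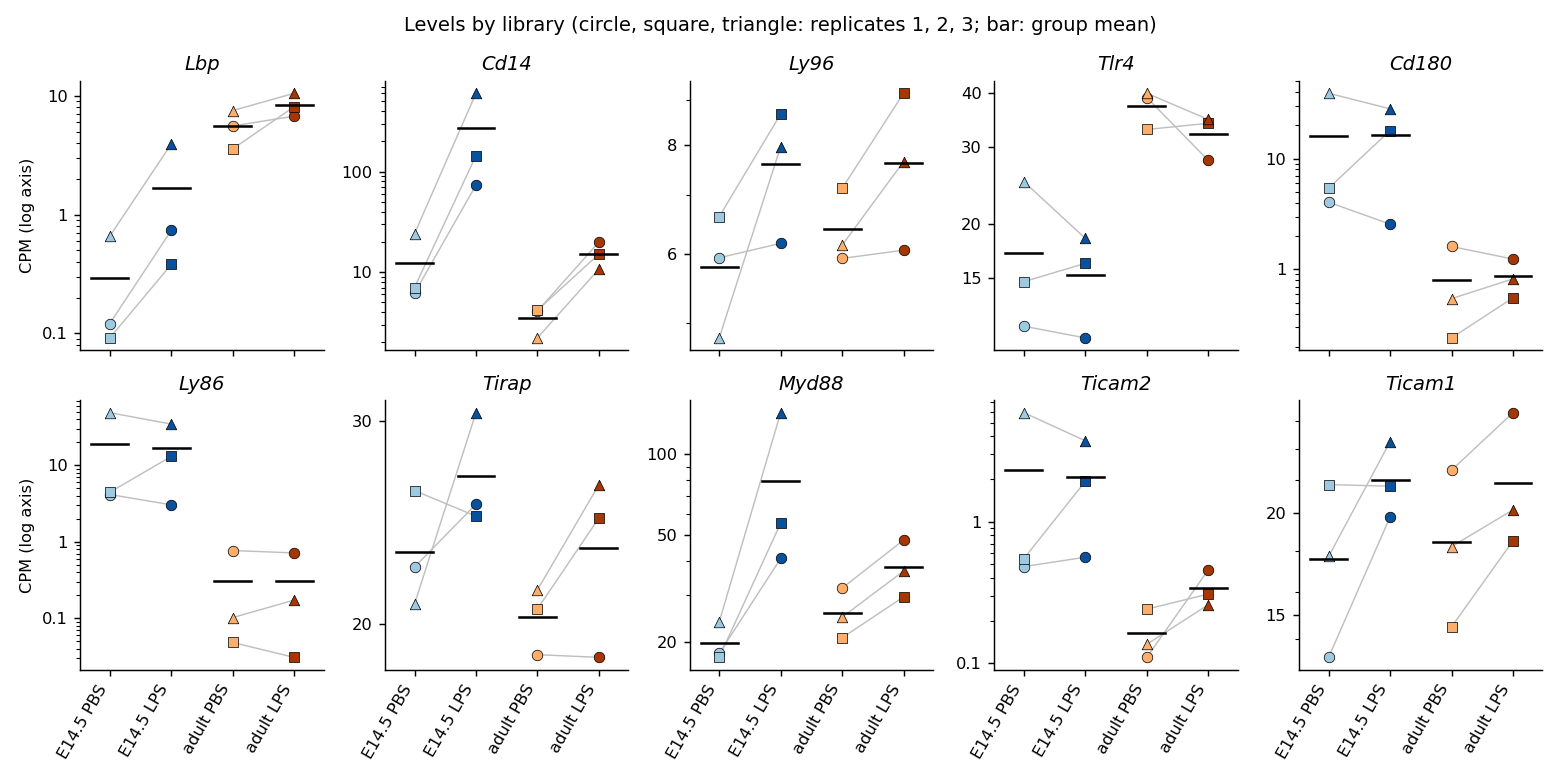
CPM of each gene (log axis) in the 12 libraries by group, with grey lines joining the PBS and LPS libraries of the same number and black bars at the group means. Cd14 rises along every line, Tlr4 sits higher in adult than in embryonic libraries, and Cd180 and Ly86 sit higher in embryonic libraries, highest in the third culture.

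Of the 10 genes, Cd14 and Myd88 rose with LPS in embryonic cells, where 2.75% of all tested genes passed. The test was the quasi-likelihood F test of edgeR, with p-values adjusted over all tested genes by the Benjamini-Hochberg method and a threshold of 0.05. In adult cells 0 of the 10 passed, where 0.606% of all genes passed, and only Cd14 had an unadjusted p under 0.05. DESeq2 passed the same 2 genes in embryonic cells and 0 in adult cells, where it passed 5.26% and 2.26% of all genes with an adjusted p. With the culture as a block, Cd14, Myd88 and Lbp rose in embryonic cells, where 12.5% of all genes passed, and Cd14 rose in adult cells, where 6.2% passed. The median log2 fold change of the 10 genes was 0.27 in embryonic and 0.25 in adult cells, against 0.00 and -0.01 over all tested genes.

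Cd14, the co-receptor that hands LPS to MD-2, was at 6.18, 7.04 and 24.1 CPM in the embryonic PBS libraries and at 73.4, 144 and 601 CPM in the embryonic LPS libraries. It was at 4.10, 4.19 and 2.22 CPM in adult PBS and at 19.9, 15.1 and 10.7 CPM in adult LPS libraries. Every LPS library lay above every PBS library of its stage, and the third embryonic culture was the highest of its group with and without LPS. The log2 fold change with LPS was 4.45 (SE 0.84, adjusted p = 0.0202, 21.9-fold) in embryonic cells and 2.13 (SE 0.79, adjusted p = 0.591) in adult cells. With the block it was 4.22 (SE 0.20, adjusted p = 7.14e-06) and 2.13 (SE 0.21, adjusted p = 0.00112), and it rose in 6 of 6 pairs. Without the block the embryonic value was 3.08 without the third embryonic LPS library and 5.37 without the third embryonic PBS library, and the fit of the embryonic groups alone gave an adjusted p of 0.224. The call was also lost when the first or the second embryonic PBS library was left out (adjusted p up to 0.11), whereas with the block it held without each culture in turn (adjusted p at most 9.59e-05). When both libraries of a culture were left out without the block, an alternative chosen after seeing the data, the embryonic call held without the first (adjusted p = 0.0404) and without the third embryonic culture (log2 fold change 4, SE 0.45, adjusted p = 0.00295) and was lost without any other culture (adjusted p up to 0.0789). Without the third embryonic culture Cd14 also passed in adult cells.

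Lbp, the serum protein that extracts LPS from membranes, lies on chromosome 2 (158306493 to 158332852, GRCm38.p6). It was at 0.121, 0.0915 and 0.658 CPM in embryonic PBS and at 5.57, 3.57 and 7.50 CPM in adult PBS libraries, so the lowest embryonic libraries were at the detection floor, with 4 and 3 counts. With LPS it was at 0.736, 0.38 and 3.92 CPM in embryonic and at 6.74, 8.09 and 10.5 CPM in adult libraries. The stages did not overlap with PBS or with LPS, and of the embryonic libraries only the LPS library of the third culture exceeded the lowest adult PBS library. The embryonic log2 fold change with LPS was 2.51 (SE 0.92, adjusted p = 0.277), and 2.48 with the block (SE 0.32, adjusted p = 0.00189). Without the block it was 0.91 without the third embryonic LPS library and 3.92 without the third embryonic PBS library. In adult cells it was 0.60 (SE 0.80, adjusted p = 1), and 0.63 with the block (SE 0.20, adjusted p = 0.126). Lbp entered the test only through the adult groups, the groups in which all libraries exceeded 0.5 CPM, so the filter favoured a difference between stages.

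Tlr4, the signalling receptor, lies on chromosome 4 (66827551 to 66846581). Its CPM was 11.6, 14.7 and 25.0 in embryonic PBS, 10.9, 16.2 and 18.5 in embryonic LPS, 39.1, 33 and 40.0 in adult PBS and 28, 34.1 and 34.8 in adult LPS libraries. Every adult library was above every embryonic library. The log2 fold change with LPS was -0.17 (interval of 2 SE -0.72 to 0.38) in embryonic and -0.21 (-0.76 to 0.34) in adult cells. With the block it was -0.13 (-0.41 to 0.14) and -0.21 (-0.48 to 0.05). A fall or rise of these sizes cannot be told from the spread. Ly96 (chromosome 1, 16688456 to 16709605), whose product MD-2 holds the lipid A of LPS, was at 5.94, 6.62 and 4.81 CPM in embryonic PBS and at 6.17, 8.67 and 7.96 CPM in embryonic LPS libraries. In adult cells it was at 5.93, 7.13 and 6.14 CPM with PBS and at 6.06, 9.16 and 7.65 CPM with LPS. The LPS library was above its PBS partner in 6 of 6 pairs, by 0.03 to 0.72 on the log2 scale, but the groups overlapped in both stages and Ly96 passed in neither, with or without the block (adjusted p 0.166 or more). The difference of Ly96 between the stages was -0.07 over both treatments (log2, interval of 2 SE -0.38 to 0.23), against -1.11 (-1.50 to -0.72) for Tlr4.

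Cd180 (chromosome 13, 102693547 to 102706631) and Ly86 (chromosome 13, 37345345 to 37419036), the RP105 and MD-1 genes, followed each other across the libraries (r = 0.98 of log2 CPM over 12 libraries from 6 cultures). Cd180 was at 4.04, 5.4 and 38.8 CPM in embryonic PBS, at 2.56, 17.9 and 28.1 in embryonic LPS, at 1.61, 0.241 and 0.545 in adult PBS and at 1.24, 0.554 and 0.821 in adult LPS libraries. Ly86 was at 4.16, 4.45 and 48.9 CPM in embryonic PBS, at 3.05, 13.1 and 34.7 in embryonic LPS, at 0.769, 0.0482 and 0.102 in adult PBS and at 0.716, 0.0308 and 0.173 in adult LPS libraries. All embryonic libraries were above all adult libraries for both genes, the third embryonic culture was at the top, and the second adult culture held 1 count of Ly86 in each library. With LPS both were lower in the embryonic pairs 1 and 3 and higher in pair 2. The log2 fold changes in embryonic cells were 0.01 (SE 0.98) for Cd180 and -0.18 (SE 1.19) for Ly86. With the block they were 0.21 (SE 0.44) and 0.18 (SE 0.37). Of the exon bases of Cd180, 182 overlap Mast4 on the opposite strand, which strand-specific counting keeps apart.

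Myd88 (chromosome 9, 119335934 to 119340018) was the adaptor that rose. It was at 18.1, 17.5 and 23.7 CPM in embryonic PBS and at 40.9, 55.4 and 143 CPM in embryonic LPS libraries, without overlap. In adult cells it was at 31.7, 20.7 and 24.7 CPM with PBS and at 47.9, 29.4 and 36.7 CPM with LPS, and these groups overlapped although the LPS library was higher in 3 of 3 pairs. The embryonic log2 fold change was 2.01 (SE 0.42, adjusted p = 0.0310, 4.03-fold), and 1.82 with the block (SE 0.23, adjusted p = 0.00174). Without the block the value was 1.25 without the third embryonic LPS library, and the embryonic groups alone gave an adjusted p of 0.257. The call was also lost when any of the 3 embryonic PBS libraries, the third adult PBS library or the third adult LPS library was left out (adjusted p up to 0.151). Of the cultures left out with both libraries, it held only without the third embryonic culture (log2 fold change 1.4, SE 0.27, adjusted p = 0.0411). In adult cells it was 0.56 (SE 0.41, adjusted p = 1), and with the block 0.56 (SE 0.22, adjusted p = 0.232). With the block and 1 culture left out, an alternative added after seeing the data, Myd88 passed in adult cells in 1 of 6 fits. That fit was without the third embryonic culture (log2 fold change 0.55, adjusted p = 0.00887 in edgeR).

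With all libraries, the other adaptors did not pass in either stage, with or without the block. Tirap (chromosome 9, 35184391 to 35200291) was at 22.4, 26.1 and 20.8 CPM in embryonic PBS, at 25.4, 24.8 and 30.5 in embryonic LPS, at 18.8, 20.6 and 21.4 in adult PBS and at 18.7, 24.7 and 26.4 in adult LPS libraries, and in each stage the LPS and PBS libraries overlapped. Ticam1 (chromosome 17, 56269462 to 56276767) was at 13.3, 21.7 and 17.7 CPM in embryonic PBS, at 19.8, 21.6 and 24.5 in embryonic LPS, at 22.6, 15 and 18.2 in adult PBS and at 26.6, 18.5 and 20.2 in adult LPS libraries, again with overlap. Without the block, the intervals of 2 SE of the LPS log2 fold change in embryonic cells ran from -0.09 to 0.53 for Tirap and from -0.13 to 0.77 for Ticam1. In adult cells they ran from -0.11 to 0.51 and from -0.21 to 0.69. With the block they ran from -0.04 to 0.47 and 0.09 to 0.59 in embryonic, and from -0.07 to 0.45 and 0.00 to 0.49 in adult cells. With the block and 1 culture left out, Ticam1 passed in embryonic cells in 1 of 6 fits. That fit was without the second embryonic culture (log2 fold change 0.52, adjusted p = 0.0172 in edgeR). Ticam2 was at 0.482, 0.549 and 5.89 CPM in embryonic PBS, at 0.561, 1.93 and 3.73 in embryonic LPS, at 0.11, 0.241 and 0.136 in adult PBS and at 0.456, 0.308 and 0.259 in adult LPS libraries. Its adult values rest on 3 to 14 counts, and it entered the test only through the embryonic LPS group, as Ly86 did only through the embryonic groups. Ticam2 shares 838 bases of exon on the same strand with Tmed7, so reads in that stretch may be split or dropped and its level is uncertain.

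RefSeq promoters (300 bases around each transcription start, GRCm38.p6) were listed for 5 of the 10 genes. Those of the 3 adaptors below are shown because 1 of them rose with LPS and the others did not pass with all libraries. Capitals mark matches on either strand to GGG, any 5 bases and CC, an NF-kB type motif found in 50.8% of the 32851 listed promoters, or to GAAA, any 2 bases and GAAA, an ISRE type motif found in 3.44%.
Myd88, chr9:119339969-119340268, minus strand: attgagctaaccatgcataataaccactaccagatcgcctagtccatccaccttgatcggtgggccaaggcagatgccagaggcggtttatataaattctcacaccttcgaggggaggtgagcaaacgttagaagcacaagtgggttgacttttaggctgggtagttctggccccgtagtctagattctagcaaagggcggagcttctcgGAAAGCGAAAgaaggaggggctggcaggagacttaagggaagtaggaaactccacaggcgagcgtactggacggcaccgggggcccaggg
Ticam1, chr17:56276718-56277017, minus strand: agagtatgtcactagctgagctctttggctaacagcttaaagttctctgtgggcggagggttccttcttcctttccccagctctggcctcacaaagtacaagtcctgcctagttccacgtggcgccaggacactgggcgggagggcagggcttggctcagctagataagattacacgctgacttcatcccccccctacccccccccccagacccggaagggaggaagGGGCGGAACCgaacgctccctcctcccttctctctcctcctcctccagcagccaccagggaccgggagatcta
Tirap, chr9:35199856-35200155, minus strand: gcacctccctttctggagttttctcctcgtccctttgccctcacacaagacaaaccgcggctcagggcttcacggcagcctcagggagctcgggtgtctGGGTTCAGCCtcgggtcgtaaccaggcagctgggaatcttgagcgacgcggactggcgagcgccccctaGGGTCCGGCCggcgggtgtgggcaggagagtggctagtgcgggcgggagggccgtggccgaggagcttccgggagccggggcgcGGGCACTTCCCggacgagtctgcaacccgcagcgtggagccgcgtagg
The Myd88 promoter held 1 match to the ISRE type letters, starting 40 bases before the transcription start, and 0 to the NF-kB type. The Ticam1 promoter held 1 NF-kB type match, starting 23 bases before the start. The Tirap promoter, the first of 2 listed, held 4 NF-kB type matches, of which 2 overlap and are read on opposite strands just after the start. The promoters of Cd180 (2 listed) and Ly86 held 0 matches to either. These are letter matches in 1 window per start and say nothing of binding.

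The LPS response of Cd14, Lbp and Myd88 was larger in every embryonic pair than in any adult pair, a separation that 15.5% of all tested genes showed in one direction or the other. The log2 difference of LPS from PBS within pairs ran from 3.56 to 4.64 in embryonic and from 1.83 to 2.26 in adult cells for Cd14, from 1.48 to 2.46 and 0.27 to 1.17 for Lbp, and from 1.17 to 2.59 and 0.51 to 0.60 for Myd88. The interaction of stage and LPS passed for 0% of all tested genes in edgeR without the block, with 293 genes and, among the 10, only Myd88 at an unadjusted p under 0.05. DESeq2 passed 25 genes (0.192%), 0 of them among the 10. With the block 0.844% of all genes passed, and Cd14 was among them, with a log2 difference of 2.09 between the embryonic and adult responses (SE 0.29, adjusted p = 0.0191). This call was lost when any of the 3 adult cultures was left out (log2 difference 1.93 to 2.17, adjusted p 0.0994 to 0.11). For Lbp the difference was 1.85 (SE 0.38, adjusted p = 0.0958) and for Myd88 1.26 (SE 0.32, adjusted p = 0.205) with the block.

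**Figure D2:**
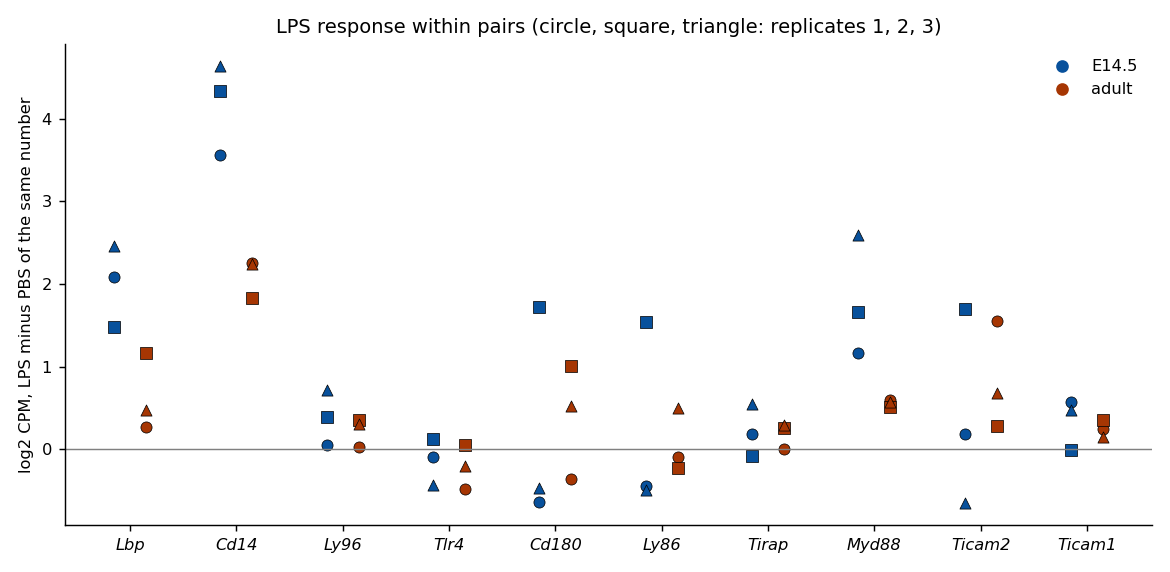
Log2 CPM of each LPS library minus that of the PBS library with the same number, for the 10 genes, in embryonic (blue) and adult (brown) cells, 3 pairs each. The stages are apart for Cd14, Lbp and Myd88, and overlap for the other 7 genes.

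Between the stages, 6 of the 10 genes passed the test over both treatments when all 12 libraries were taken as independent, where 17.9% of all tested genes passed. Tlr4 and Lbp were lower in embryonic cells, with log2 fold changes of -1.11 (SE 0.20, adjusted p = 0.00491) and -3.28 (SE 0.64, adjusted p = 0.00726). Cd14 was higher by 3.00 (SE 0.57, adjusted p = 0.0064), Ticam2 by 3.20 (SE 0.75, adjusted p = 0.0159), Cd180 by 4.26 (SE 0.82, adjusted p = 0.00678) and Ly86 by 5.83 (SE 1.09, adjusted p = 0.00599). Lbp, Ticam2 and Ly86 entered the test only through groups of the stage in which they were higher, so the filter favoured their calls, and Tlr4, Cd14 and Cd180 are the 3 that it admitted through groups of both stages. The LPS and PBS libraries of a culture are not independent, however. With the culture as a random block (limma voom, correlation 0.7), 4.21% of all genes passed, and of the 10 only Tlr4 (-1.16, SE 0.25, adjusted p = 0.0272) and Lbp (-3.88, SE 0.72, adjusted p = 0.0148). Cd14 then had an adjusted p of 0.151, Ticam2 of 0.27, Cd180 of 0.254 and Ly86 of 0.21. With the counts of each culture summed, an alternative added after seeing the data, 0 of the 10 passed in edgeR (Tlr4 adjusted p = 0.0801), and 147 of 13038 genes passed (1.13%). At an unadjusted p under 0.05 stood 6 of the 10, and 19.2% of all genes. Without both libraries of the third embryonic culture the 6 calls held in the fit of independent libraries, with smaller sizes for Cd14 (1.85, SE 0.26), Ticam2 (1.73, SE 0.41), Cd180 (3.01, SE 0.62) and Ly86 (4.19, SE 0.84) and larger ones for Tlr4 (-1.40, SE 0.14) and Lbp (-4.80, SE 0.37). Without the third adult culture only Tlr4 passed (-1.05, SE 0.24, adjusted p = 0.0456), and the other 5 had adjusted p-values of 0.0552 to 0.105.

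With PBS alone, Lbp was the only 1 of the 10 to pass between the stages (log2 fold change -4.24, SE 0.95, adjusted p = 0.0378, 18.8-fold lower in embryonic cells), where 4.08% of all genes passed. The filter favoured the Lbp calls between stages, since it admitted Lbp only through the adult groups. The embryonic PBS libraries held 4, 3 and 22 counts of Lbp, so the fold is uncertain. Lbp lost the call when any adult library or the first or second embryonic PBS library was left out (adjusted p up to 0.126), and the value was -5.65 without the third embryonic PBS library. Tlr4 just missed it, at -1.13 (SE 0.28, adjusted p = 0.0509), and Myd88 was at -0.38 (SE 0.41, adjusted p = 0.695). With LPS alone, Cd14 was the only 1 to pass (4.16, SE 0.83, adjusted p = 0.0230, 17.9-fold higher in embryonic cells), where 5.31% of all genes passed, and it lost the call when any of the adult LPS libraries was left out (adjusted p up to 0.11), and the value was 2.80 without the third embryonic LPS library. Tlr4 was then at -1.09 (SE 0.28, adjusted p = 0.0506) and Myd88 at 1.07 (SE 0.41, adjusted p = 0.159). Without both libraries of the third embryonic culture Tlr4 passed with PBS (-1.51, SE 0.20, adjusted p = 0.00828) and with LPS (-1.29, SE 0.20, adjusted p = 0.0142), and Lbp passed in both as well. DESeq2 passed 5 of the 10 in each of these comparisons, Tlr4 among them, where it passed 11.9% of all genes with PBS and 13.1% with LPS.

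**Figure D3:**
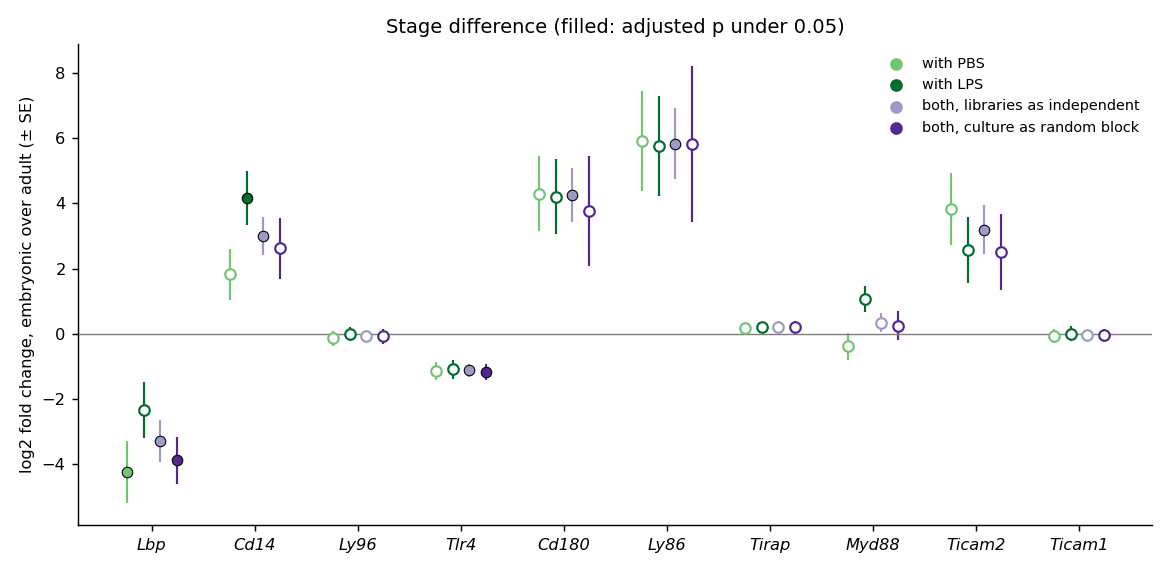
Log2 fold change of embryonic over adult cells for the 10 genes, with bars of 1 SE, with PBS, with LPS, and over both treatments without and with the culture as a random block (filled points have an adjusted p under 0.05). Tlr4 and Lbp lie below 0 and stay filled with the random block, whereas Cd14, Cd180, Ly86 and Ticam2 lie above 0 and do not.

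Macrophage markers moved with the stage difference of Cd180, Ly86, Ticam2 and Cd14. All 12 markers, Ptprc, Itgam and Csf1r among them, were higher in embryonic cells with PBS and with LPS, with median log2 fold changes of 4.37 and 4.41. In the test over both treatments that took all libraries as independent 11 of the 12 passed, where 17.9% of all genes passed. With the culture as a random block 0 of the 12 passed in limma (adjusted p 0.109 to 0.205), where 4.21% of all genes passed. All 12 were at an unadjusted p under 0.05 in that fit, for which the share of all genes at that level was not counted. Within each treatment 0 of the 12 passed in edgeR. At an unadjusted p under 0.05 stood 11 with PBS and 11 with LPS, and 19.8% and 22% of all genes. DESeq2 passed 11 of the 12 with PBS and 11 with LPS, where it passed 11.9% and 13.1% of all genes. As a percentage of the summed marker CPM, Cd180 was at 1.66, 1.19 and 1.39% in embryonic PBS and at 0.828, 1.25 and 1.14% in adult PBS libraries, which overlapped. Ly86 was at 1.71, 0.984 and 1.75% in embryonic PBS and at 0.395, 0.249 and 0.214% in adult PBS libraries, which did not. The adult values of Ly86 rest on 21, 1 and 3 counts, and the filter admitted it only through the embryonic groups. Ticam2 was at 0.198, 0.121 and 0.211% in embryonic PBS and at 0.0565, 1.25 and 0.285% in adult PBS libraries, the latter from 3, 5 and 4 counts. Such counts are too few to compare the genes on this scale. The part of macrophages in these differences was not tested.

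The same markers can be set beside the Cd14 response. As a percentage of the summed marker CPM, Cd14 went from 2.53, 1.56 and 0.862% with PBS to 34.8, 13.2 and 25.6% with LPS in embryonic cells, and from 2.11, 21.7 and 4.63% to 9.31, 90.6 and 21.4% in adult cells. It was higher with LPS in all 6 pairs on this scale, and the stages overlapped with LPS. The markers themselves passed the test of LPS in 0 of 12 cases in either stage in edgeR without the block, with 0 at an unadjusted p under 0.05 and 0 in DESeq2. With the block 4 of 12 rose in embryonic cells, where 12.5% of all genes passed. These were Ptprc, Adgre1, Spi1 and Fcer1g, with log2 fold changes of 1.84, 1.08, 1.37 and 1.07. In adult cells 0 of 12 passed with the block, where 6.2% of all genes passed. At an unadjusted p under 0.05 stood 2 of the 12, a level for which the share of all genes was not counted with the block. Tlr4 did not follow the markers across the stages, since it was higher in every adult library although 5 of the 6 adult libraries had marker sums below those of all embryonic libraries. Within the embryonic PBS libraries, however, both were highest in the third culture.

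**Figure D4:**
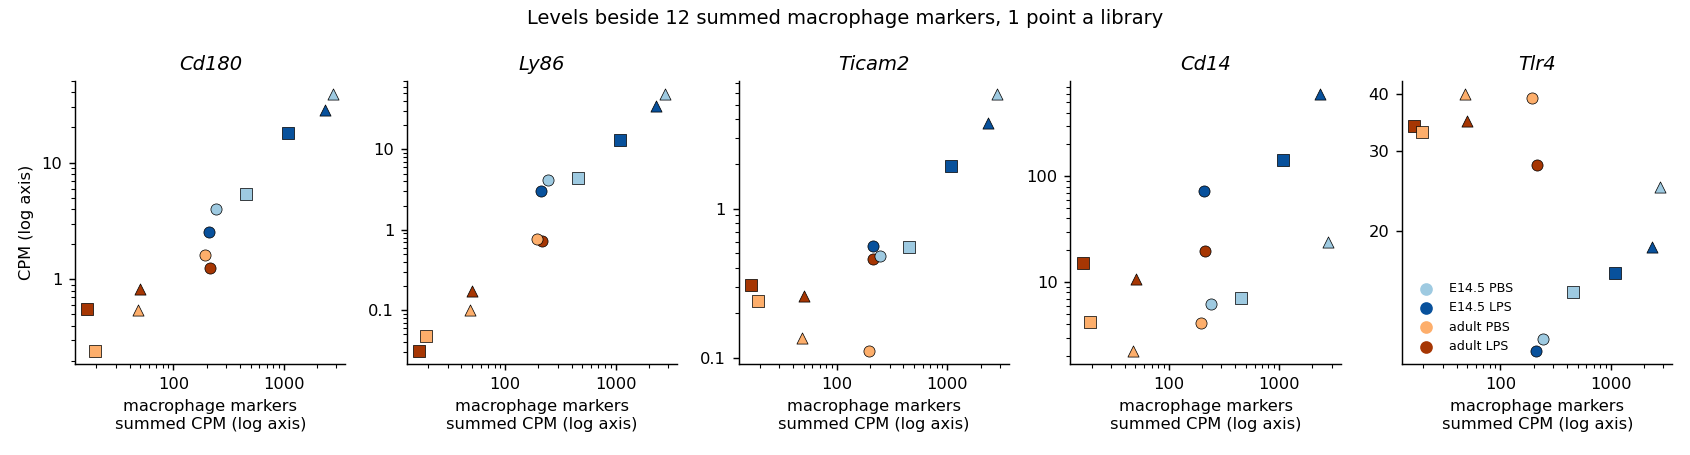
CPM of Cd180, Ly86, Ticam2, Cd14 and Tlr4 (log axis) against the summed CPM of 12 macrophage markers (log axis), 1 point per library, with circles, squares and triangles for replicates 1, 2 and 3. Cd180 and Ly86 climb with the markers over both stages, Cd14 is higher with LPS at a given marker sum, and Tlr4 lies higher in the adult libraries, which have the lower sums apart from the first culture.

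Around the receptor, 3 lists of pathway genes were counted. The relay list (18 genes from IRAK kinases to IRF3 and IRF5) had 2 genes that rose and 0 that fell in embryonic cells and 1 that rose in adult cells, where 2.75% and 0.606% of all genes passed in either direction, with median log2 fold changes of 0.23 and 0.13. Ikbke, the kinase IKK-epsilon that works beside TBK1, rose in embryonic cells from 8.80 ± 3.61 to 62.4 ± 39.2 CPM (log2 fold change 2.82, SE 0.46, adjusted p = 0.0102). In adult cells it was at 10.2 ± 2.58 and 37.4 ± 6.09 CPM (1.87, SE 0.44, adjusted p = 0.131). Traf3, which joins TRIF to TBK1, rose in both stages, from 54.8 ± 2.57 to 91.4 ± 7.59 CPM in embryonic cells (0.74, SE 0.09, adjusted p = 0.00286) and from 56.9 ± 2.07 to 86.1 ± 4.46 CPM in adult cells (0.60, SE 0.09, adjusted p = 0.0175). With the block 6 of the 18 rose in embryonic cells (Irak3, Traf6, Traf3, Ikbkb, Ikbke and Irf5) and 4 in adult cells (Irak3, Traf3, Ikbke and Irf5), where 12.5% and 6.2% of all genes passed in either direction. Irak1, Irak4, Map3k7, Tbk1 and Irf3 passed in neither stage in edgeR, with or without the block. DESeq2 passed 4 of the 18 in embryonic and 2 in adult cells, where it passed 5.26% and 2.26% of all genes.

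Of 9 listed brakes on the receptor 7 were tested, Sigirr and Sarm1 being too low. In edgeR without the block 2 rose in embryonic and 1 in adult cells, where 2.75% and 0.606% of all genes passed in either direction. Of the 7, 0 fell, and the median log2 fold changes were 1.82 and 1.15. DESeq2 passed 3 of the 7 in each stage, where it passed 5.26% and 2.26% of all genes. Nfkbia, the NF-kB inhibitor IkB-alpha, rose from 18.5 ± 3.13 to 358 ± 186 CPM in embryonic cells (log2 fold change 4.27, SE 0.44, adjusted p = 0.00162) and from 29.0 ± 2.67 to 292 ± 142 CPM in adult cells (3.33, SE 0.42, adjusted p = 0.00965). Tnfaip3, the ubiquitin-editing enzyme A20, rose in embryonic cells (3.26, SE 0.59, adjusted p = 0.0171) and just missed the threshold in adult cells (3.08, SE 0.59, adjusted p = 0.0520). With the block, 4 of the 7 rose in both stages, which were Nfkbia, Tnfaip3, Irak3 (IRAK-M, also in the relay list) and Il1rl1 (ST2). In that fit 12.5% of all genes passed in embryonic and 6.2% in adult cells. The list of 8 chaperones and trafficking factors, which includes the TLR chaperones Hsp90b1 and Cnpy3, had 0 genes past the test in either stage in edgeR, with 0 at an unadjusted p under 0.05 and 0 in DESeq2, and median log2 fold changes of 0.15 and -0.02. With the block Unc93b1, the escort of endosomal TLRs, rose in embryonic cells (0.79, SE 0.16, adjusted p = 0.0184). The interaction of stage and LPS passed for 0 genes of the 3 lists in edgeR with or without the block and in DESeq2. At an unadjusted p under 0.05 stood 1 relay gene without the block, where 2.25% of all genes did. With the block 4 relay, 2 brake and 1 chaperone genes did. The share of all genes at that level was not counted with the block, so these counts cannot be read as an excess.

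**Figure D5:**
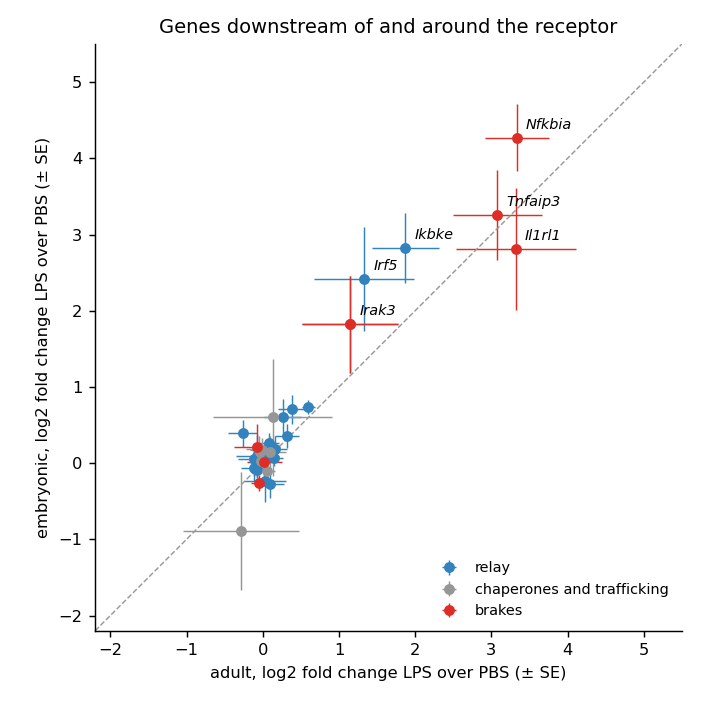
Log2 fold change of LPS over PBS in embryonic (vertical) against adult cells (horizontal) for the tested genes of the 3 lists, with bars of 1 SE, from the fit without the block. The dashed line marks equal responses, and most genes lie near 0 in both stages, with Nfkbia, Tnfaip3, Il1rl1, Ikbke, Irf5 and Irak3 away from it.

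Across the 12 libraries, which share 6 cultures, the genes most like each member were found by the Pearson correlation of log2 CPM. Tlr4 was most like Plscr4, Mmp19 and Mgp (r = 0.97, 0.969 and 0.964), and Lbp like Nfix, Atp8b1 and C1ra (0.972, 0.97 and 0.963). Cd14 was most like Rassf4, Pyhin1 and Pydc3 (0.98, 0.979 and 0.976), and Myd88 like Tapbp, Zc3h12c and Ifi35 (0.964, 0.961 and 0.961). Ly86 was most like Laptm5, Btk and Coro1a (0.994, 0.994 and 0.993), Cd180 like Fyb, Naip5 and Coro1a (0.984, 0.984 and 0.983), and Ticam2 like Plcl2 (0.987). Laptm5 is also in the macrophage marker list. Ly96, Ticam1 and Tirap had looser partners, which were Ggps1 at 0.925, Bdkrb2 at 0.911 and Atl2 at 0.894.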

How the data were processed

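Stage, treatment and replicate number came from the sample labels. The authors trimmed and mapped the reads (STAR, GRCm38.p6), allowed 1 mismatch and dropped reads that fit several places, per the paper's methods. The deposited files give raw gene counts without normalization, of which the column for the library strand was used, since the opposite strand held 1.14% to 1.98% of gene counts. Rows naming no gene (17.4% to 19.9% of counts) were left out. Between libraries of the same group the chi-square per gene was 31.6 to 278, so each was counted as its own sample.

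Tests used edgeR 4.0.16, DESeq2 1.42.0 and limma 3.58.1 under R 4.3.3, and plots matplotlib 3.10.9 under Python 3.11.15. Genes above 0.5 CPM in all libraries of at least 1 group were tested after TMM normalization (factors 0.899 to 1.10), in a single quasi-likelihood model of the 4 groups, with Benjamini-Hochberg adjustment and a threshold of 0.05. The SE is the absolute log2 fold change divided by the square root of F. Log2 CPM in pair differences and correlations used a prior count of 2. The replicate number within a stage served as a block, since same-numbered libraries of a stage correlated. Across stages they did not (r -0.306 to -0.0022 with LPS, -0.224 to -0.089 with PBS), so stages were compared with the culture as a random block in limma voom. Exon lengths came from GENCODE, positions and promoters from RefSeq. Adgre1 and Spi1 stand under older symbols in the files. The scripts were tested on simulated counts. The members, lists and tests were chosen with earlier results of these data known. All 10 members are named, and from each list at most 3 genes past the test of LPS with the largest fold change, while genes named for their calls with the block were picked after their values were seen. Alternatives tried were DESeq2, other size factors, other filters, both strands, only the groups compared, blocks, a fold threshold, and each library or culture left out. One marker list and some of the genes most like Ticam2 are not reported here.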

Additional observations from a re-analysis of the deposited data

Results flagged for a closer look

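Cd14 responded to LPS more strongly in embryonic than in adult cells in the fit with the culture as a block, with a log2 difference of 2.09 between the responses (SE 0.29, adjusted p = 0.0191 by edgeR's quasi-likelihood test). All 3 embryonic pairs exceeded all 3 adult pairs. Without the block the difference was 2.33 (SE 1.07, adjusted p = 1), and with the block it passed in 3 of 6 fits that left out a culture.

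Myd88 had counts on the strand opposite to the gene, which the comparisons did not use. In adult cells these averaged 0.405 CPM with LPS (0.456, 0.369 and 0.389 CPM) and lay at 0.220, 0.145 and 0.273 CPM with PBS, from 3 to 14 counts per library. They made up 0.943, 1.24 and 1.05% of the Myd88 counts of both strands with LPS and 0.690, 0.694 and 1.09% with PBS. In embryonic cells the opposite strand lay at 0.21, 0.518 and 0.971 CPM with LPS and at 0.301, 0.244 and 0.0299 CPM with PBS. There it made up 0.512, 0.927 and 0.675% with LPS and 1.64, 1.38 and 0.126% with PBS, so the pairs differed in direction. In all libraries together the opposite strand held 1.14% to 1.98% of gene counts.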

How the results depend on the processing

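The number of the 10 genes that passed was 2 for LPS in embryonic cells, 0 for LPS in adult cells, 0 for the interaction, 1 between stages with PBS, 1 with LPS and 6 over both treatments. DESeq2 gave 5 between stages with PBS and 5 with LPS, and RLE size factors 2 and 2. Counts of both strands gave 2 between stages with LPS. Fits of only the groups compared gave 0 for embryonic LPS, 1 for adult LPS, 0 between stages with PBS and 0 with LPS. The replicate block gave 3 for embryonic LPS, 1 for adult LPS and 1 for the interaction, and, across stages, where the numbers do not pair the cultures, 2 between stages with PBS and 3 with LPS. The culture as a random replicate block gave 2 over both treatments, and summed cultures, chosen after seeing the data, gave 0. Without 1 library each, the counts ran from 0 to 2 for embryonic LPS, from 0 to 3 between stages with PBS and from 0 to 5 with LPS, and stayed at 0, 0 and 6 for adult LPS, the interaction and both treatments. With the replicate block and without 1 culture each, also added after seeing the data, they ran from 3 to 4 for embryonic LPS, from 1 to 2 for adult LPS and from 0 to 1 for the interaction. Without both libraries of 1 culture each and without the block, likewise added, they ran from 0 to 2 for embryonic LPS, 0 to 1 for adult LPS, 0 to 2 between stages with PBS, 0 to 3 with LPS and 1 to 6 over both treatments. The 1 over both treatments was without the third adult culture, and the 1 for adult LPS without the third embryonic culture. A further fold threshold of 2 on the log2 scale left 5 over both treatments, without Tlr4. The share of all genes that passed is not given for several of these fits. They are those with RLE size factors, both strands, only the groups compared, the block across stages, the fold threshold, or a library or culture left out. Their counts therefore cannot be told from a change in how many genes passed in all.

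No called value changed sign. Of the values that did not pass, the log2 fold change of Cd180 with LPS in embryonic cells was -0.03 with all genes with a count and -0.02 with only the groups compared, and that of Ticam1 between stages with LPS -0.01 in both. With the replicate block, Ticam2 was at 0.31 and Ly86 at 0.18 with LPS in embryonic cells, Ly86 at 0.02 in adult cells, the interaction at 0.01 for Cd180 and 0.17 for Ly86, and Ly96 at 0.00 between stages with LPS. Without 1 library each, the embryonic LPS values ran from -0.41 to 0.21 for Tlr4, -0.94 to 2.00 for Ticam2, -0.71 to 1.78 for Cd180 and -1.31 to 1.98 for Ly86. The adult ones ran from -0.30 to 1.10 for Cd180 and -1.71 to 1.92 for Ly86. The interaction ran from -0.20 to 0.42 for Tlr4, -0.11 to 0.12 for Tirap, -0.10 to 0.26 for Ticam1, -2.02 to 0.90 for Ticam2, -1.09 to 1.68 for Cd180 and -2.10 to 2.00 for Ly86. Between stages, Ticam1 ran from -0.25 to 0.11 with PBS, from -0.10 to 0.19 with LPS and from -0.12 to 0.06 over both, Ly96 from -0.14 to 0.15 with LPS and from -0.14 to 0.00 over both, and Myd88 from -0.03 to 0.50 over both. The causes were not tested. Per kilobase instead of by CPM alone, 31 of 40 ranks of the levels moved. Depth limits Ly86, Ticam2 and Lbp, which rest on 1 to 22 counts in their lower stage with PBS.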
